A study of Mus musculus with 15 samples.

Results

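The genes described here are the mouse MHC class II genes and Ciita, followed across 5 groups of colon RNA libraries. They are the 10 genes H2-Aa, H2-Ab1, H2-Eb1, H2-DMa, H2-DMb1, H2-DMb2, H2-Oa, H2-Ob, Cd74 and Ciita. They were taken by gene name out of 56859 genes in the count table. Of those genes 18038 passed the filter on low counts and were tested, among them 10 of the 10 class II genes.

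MHC class II molecules are pairs of an alpha and a beta chain that present peptides from internalised protein to CD4 T cells. B cells, dendritic cells and macrophages carry them constitutively, and colonic epithelium can acquire them in inflammation. The invariant chain Cd74 escorts new chains to the endosome, where H2-DM exchanges its remnant for peptide and H2-DO, found mainly in B cells, restrains H2-DM. Ciita is a coactivator of class II transcription. It has no DNA contact of its own and joins the RFX and NF-Y complexes, which bind the X and Y boxes of class II promoters.

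Whole colon of male C57BL/6J mice was sequenced. The growth text of the labels gives an age of 6 to 10 weeks, and age at sampling is not given here. Groups named by different days may therefore differ in age as well. The study models colitis-associated cancer with azoxymethane (AOM), a carcinogen given at 10 mg/kg into the peritoneum on day 0, followed by drinking water with 2.5% DSS (dextran sulfate sodium), an agent that damages the epithelium of the colon. The DSS periods were days 7 to 11, 28 to 32 and 49 to 53. The compound APX3330, or E3330, inhibits the redox function of APE1/Ref-1 and was injected at 25 mg/kg on each DSS day, with saline as placebo.

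The 15 libraries form 5 groups of 3. Saline D27, saline D48 and saline D100 are AOM/DSS mice with saline, named by the day 27, 48 or 100 in their descriptions. The APX3330 group is AOM/DSS with the inhibitor, and its labels give no day. The sample titles name saline D48 and saline D100 by cycle, and saline D27 and APX3330 by neither cycle nor day. The cycles in the titles do not follow from the days, which were taken from the descriptions. Which saline group matches APX3330 in time is therefore not settled by the labels. Control is labelled C57BL/6 wild type only. The shared treatment text says AOM went to every mouse, so what Control received is not settled by the labels. Nothing in the labels says that the 3 libraries of a group came from separate animals, so each p-value reflects only how these libraries vary, which may be technical. In whole colon, fewer cells of a type and less RNA per cell cannot be told apart.

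Libraries held 13548661 to 17919613 counts. In CPM (counts scaled to library size with TMM factors), the epithelial markers Epcam, Cdh1 and Vil1 ranged over the 15 libraries from 1245 to 1715, from 1154 to 1647 and from 610 to 812. Other epithelial genes were less even, and Muc2 ranged from 2297 to 22614 CPM. The mean sum of the colon epithelial list was 1.57 times that of Control at saline D27. It was 1.36 times at saline D48, 1.86 times at saline D100 and 1.40 times with APX3330. Some libraries carried transcripts of other tissue. Pancreatic enzyme transcripts summed to 42518 CPM in saline D48 replicate 2 and 10287 CPM in replicate 3, against at most 19.5 CPM in the other 13. Squamous keratin transcripts summed to 1295 and 614 CPM in Control replicates 1 and 3 and to 906 CPM in saline D100 replicate 1. They summed to 110 CPM in saline D48 replicate 2 and to at most 17.5 CPM in the remaining libraries. Counts of called genes were recomputed without Control replicates 1 and 3 and saline D100 replicate 1 (squamous transcripts), and without saline D48 replicates 2 and 3 (pancreatic transcripts).

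On GRCm38 (GENCODE M21) 8 of the 10 genes lie within the class II region of chromosome 17. H2-Oa is at chr17:34092340-34095234, H2-DMa at chr17:34119541-34139101, H2-DMb2 at chr17:34143307-34151555, H2-DMb1 at chr17:34153072-34160230 and H2-Ob at chr17:34238903-34254414, all on the plus strand. H2-Ab1 at chr17:34257689-34269419 and H2-Eb1 at chr17:34305867-34316674 are on the plus strand and H2-Aa at chr17:34282744-34287823 is on the minus strand. Ciita, the regulator, is apart from them at chr16:10480059-10528418 on the plus strand.

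RefSeq promoter windows (GRCm38.p6, 250 bases before to 50 after each transcript start) were read for 7 of the class II genes. No window was listed for H2-Ab1 or Ciita, and Cd74 was left out of this search. Excerpts of 6 windows are shown because these genes carry the letters at which the Ciita complex is known to assemble. They include genes called higher than Control in every AOM/DSS group and genes that were not. Each excerpt is printed 5′ to 3′ on the strand of its gene. Capitals mark X-type letters CNNNNAAC followed by Y-type letters GATTGG.
H2-Aa (chr17:34287861-34287913, minus): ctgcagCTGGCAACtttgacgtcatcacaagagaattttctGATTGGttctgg
H2-Eb1 (chr17:34305767-34305818, plus): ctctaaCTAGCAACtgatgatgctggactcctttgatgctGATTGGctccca
H2-DMb1 (chr17:34153088-34153140, plus): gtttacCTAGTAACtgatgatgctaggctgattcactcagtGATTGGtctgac
H2-DMb2 (chr17:34145117-34145169, plus): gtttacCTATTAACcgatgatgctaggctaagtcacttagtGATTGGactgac
H2-Oa (chr17:34092294-34092346, plus): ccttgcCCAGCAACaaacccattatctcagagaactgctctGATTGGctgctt
H2-Ob (chr17:34238809-34238858, plus): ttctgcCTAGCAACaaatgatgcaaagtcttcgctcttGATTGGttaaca

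Between the capitals there were 27 bases in H2-Aa, H2-DMb1, H2-DMb2 and H2-Oa, 26 in H2-Eb1 and 24 in H2-Ob. The Y-type letters began 44 to 91 bases before the start, as the map of motif positions shows. An X-type match followed by a Y-type match with 20 to 30 bases between them, on either strand, was found in 172 of 32817 RefSeq promoters of the same length (0.524%). Y-type letters alone were found in 16.1% of those promoters and X-type letters alone in 81.5%. The 2 windows listed for H2-DMa held no such pair, and 1 of them held the Y-type letters. The pair and its spacing were chosen after the sequences were seen, and a match is a description of letters, not a bound site. The H2-DMb1 and H2-DMb2 excerpts, from the tandem copies of the H2-DM beta gene, were identical at 47 of 53 positions.

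**Figure D1:**
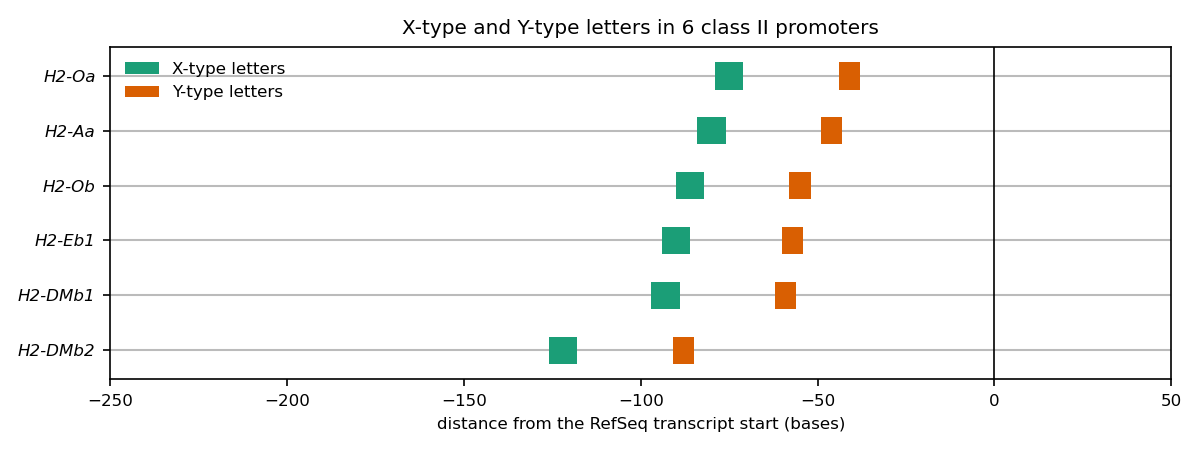
Position of the X-type letters (green) and Y-type letters (orange) in 6 class II promoters, in bases from the RefSeq transcript start (vertical line). In each promoter the X-type letters lie farther from the start than the Y-type letters, which begin between 91 bases (H2-DMb2) and 44 bases (H2-Oa) before it.

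Most class II genes, and Ciita, were higher in each of the 4 AOM/DSS groups than in Control, 7 to 10 of the 10 genes by group. In edgeR's quasi-likelihood test with Benjamini-Hochberg adjustment over 18038 genes, 10 of the 10 differed over the 5 groups at an adjusted p below 0.05, the level that counts as called here, against 37.3% of all genes. In saline D27 against Control 9 of 10 rose, where 10.2% of all genes were called higher. In saline D48 against Control 10 of 10 rose, where 14.3% were called higher. In saline D100 against Control 7 of 10 rose, with 11.4% of all genes called higher. In APX3330 against Control 7 of 10 rose, with 7.16% of all genes called higher.

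The median log2 fold change of the 10 genes against Control was 1.72 at saline D27, 2.10 at saline D48, 1.29 at saline D100 and 1.12 with APX3330. The median of all genes tested was within 0.02 of 0 in each of these comparisons. The 4 comparisons share the 3 Control libraries, so they are not independent. The genes fell into those called in every AOM/DSS group (the classical chains, Cd74, H2-DMa, H2-DMb1 and Ciita) and those called at saline D27 or D48 but not at saline D100 or with APX3330 (H2-Oa, H2-Ob and H2-DMb2). None of the 10 was called lower than Control.

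The classical chains H2-Aa, H2-Ab1 and H2-Eb1 form the peptide-binding molecules on the cell surface. H2-Aa, the alpha chain of I-A, stood at 123, 135 and 157 CPM in the Control libraries. It stood at 655, 453 and 444 CPM at saline D27, 516, 367 and 989 CPM at saline D48, 409, 352 and 375 CPM at saline D100, and 410, 332 and 312 CPM with APX3330. The lowest AOM/DSS library was therefore above the highest Control library, and saline D48 replicate 3 was the highest of the 15. The log2 fold change against Control was 1.90 ± 0.270 (SE) at saline D27, 2.17 ± 0.273 at saline D48, 1.45 ± 0.267 at saline D100 and 1.35 ± 0.266 with APX3330. The edgeR adjusted p was 0.000392, 7.97e-05, 0.00131 and 0.00356 in that order.

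H2-Ab1, the beta chain that pairs with H2-Aa, followed it closely. Its libraries stood at 112, 112 and 140 CPM in Control, 529, 420 and 343 CPM at saline D27, and 491, 420 and 895 CPM at saline D48. They stood at 353, 314 and 366 CPM at saline D100 and at 353, 303 and 282 CPM with APX3330. No AOM/DSS library overlapped Control. Against Control its log2 fold change was 1.83 ± 0.230 at saline D27, 2.31 ± 0.234 at saline D48, 1.502 ± 0.228 at saline D100 and 1.36 ± 0.228 with APX3330 (edgeR adjusted p 0.000181, 2.16e-05, 0.000320 and 0.00125). H2-Eb1, the beta chain of I-E, had a mean of 114 ± 19.5 CPM (SD, n = 3) in Control, 340 ± 73.1 at saline D27, 464 ± 209 at saline D48, 271 ± 18.6 at saline D100 and 230 ± 47.4 with APX3330. It was called in these 4 comparisons, with log2 fold changes of 1.58, 2.03, 1.25 and 1.02.

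C57BL/6 mice lack a functional H2-Ea, the alpha chain that H2-Eb1 would pair with, and so make H2-Eb1 RNA without surface I-E. The row for H2-Ea held between 0 and 5 counts per library and was not tested. H2-Eb2, a second beta gene of the region, was low but moved in the same direction, from 3.86 ± 0.755 CPM in Control to 11.6 ± 3.22 at saline D27 and 11.8 ± 7.01 at saline D48. It rose at saline D27 (log2 fold change 1.59, edgeR adjusted p 0.00958) and saline D48 (1.61, adjusted p 0.00593), while its values of 0.75 at saline D100 and 0.61 with APX3330 did not pass (adjusted p 0.183 and 0.314).

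Cd74, the invariant chain, was the most abundant of the 10 genes and had the largest rise of them in 3 of the 4 comparisons with Control. It stood at 204, 202 and 266 CPM in Control and at 1145, 880 and 825 CPM at saline D27. At saline D48 it stood at 1077, 800 and 2045 CPM, at saline D100 at 771, 764 and 821 CPM, and with APX3330 at 832, 650 and 684 CPM. Every AOM/DSS library was thus above the highest Control library. The log2 fold change was 2.08 ± 0.257 at saline D27, 2.54 ± 0.261 at saline D48, 1.81 ± 0.255 at saline D100 and 1.69 ± 0.254 with APX3330 (edgeR adjusted p 0.000157, 2.16e-05, 0.000174 and 0.000610).

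**Figure D2:**
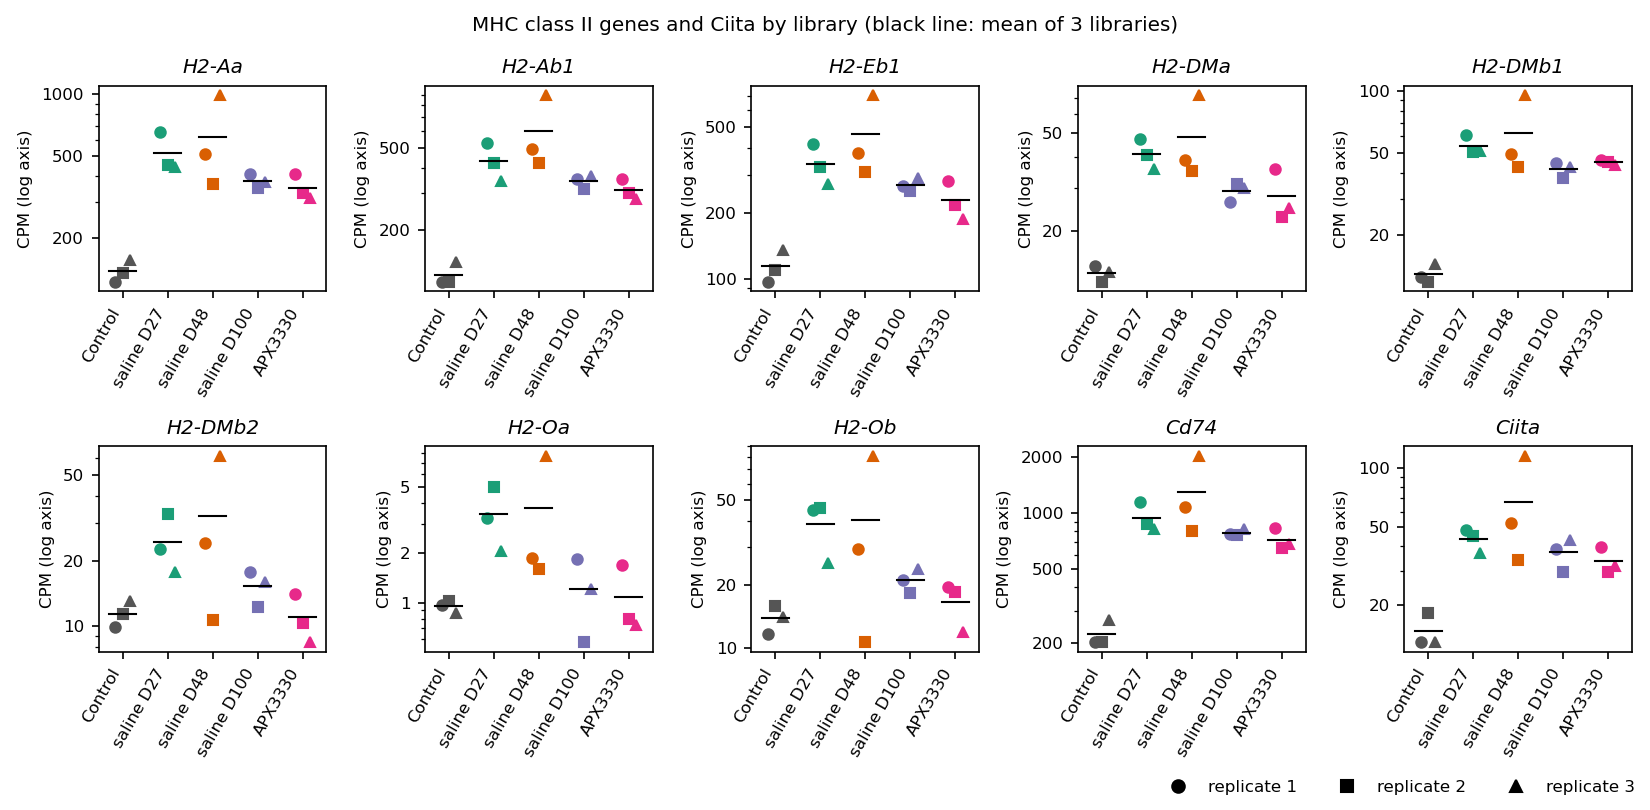
CPM of each gene in each of the 15 libraries, on log axes, with the group mean as a line. Saline D48 replicate 3 (orange triangle) is the highest library in each of the 10 panels, and libraries of H2-DMb2 and H2-Oa overlap with Control at saline D100 and with APX3330, as do those of H2-Ob with APX3330.

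H2-DM loads peptide onto class II in the endosome, and its alpha and beta chains are encoded by H2-DMa and by H2-DMb1 and H2-DMb2. H2-DMa had a mean of 13.4 ± 1.01 CPM in Control, 41.3 ± 5.77 at saline D27, 48.5 ± 20.1 at saline D48, 29.1 ± 2.50 at saline D100 and 27.8 ± 7.04 with APX3330. It rose against Control in these 4 groups, by 1.62, 1.85, 1.11 and 1.05 on the log2 scale. H2-DMb1 stood at 12.5, 11.8 and 14.5 CPM in Control, 61.2, 50.3 and 50.9 CPM at saline D27, 49.1, 42.6 and 94.9 CPM at saline D48, 44.5, 37.8 and 42.6 CPM at saline D100, and 45.9, 45.1 and 43.8 CPM with APX3330. Its libraries did not overlap with Control in any group. The log2 fold changes of H2-DMb1 were 2.06 at saline D27, 2.27 at saline D48, 1.68 at saline D100 and 1.80 with APX3330, the largest of the 10 genes in the last of these (edgeR adjusted p 7.80e-05, 2.11e-05, 0.000127 and 0.000174).

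H2-DMb2 is the neighbouring copy of the beta gene. It stood at 9.84, 11.3 and 13.0 CPM in Control, 22.7, 32.8 and 17.8 CPM at saline D27, and 24.2, 10.7 and 61.3 CPM at saline D48. It stood at 17.7, 12.2 and 15.95 CPM at saline D100 and at 14.1, 10.3 and 8.37 CPM with APX3330. Its libraries overlapped with Control at saline D48, saline D100 and with APX3330. It was called at saline D48 (log2 fold change 1.497, edgeR adjusted p 0.0185), and without saline D48 replicate 3 this became 0.62 with an adjusted p of 0.199. At saline D27 its log2 fold change was 1.10 (adjusted p 0.0882), at saline D100 0.42 (adjusted p 0.534) and with APX3330 -0.06 (adjusted p 0.946). The copies are alike: of the 50-base windows of their GENCODE exons, 22.7% of those of H2-DMb1 and 21.2% of those of H2-DMb2 are shared. How reads from shared sequence were counted is not given in the sources used here, so the split between the copies is uncertain.

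The ratio of H2-DMb1 to H2-DMb2 counts within a library separated Control from the rest. It was 1.27, 1.05 and 1.12 in Control and 2.69, 1.53 and 2.86 at saline D27. It was 2.03, 4.0 and 1.55 at saline D48, 2.52, 3.11 and 2.67 at saline D100 and 3.27, 4.37 and 5.23 with APX3330. In 12 of 12 AOM/DSS libraries the ratio was above each Control library, with a mean log2 difference of 1.30. An exact two-sided permutation test of the 12 against the 3 Control libraries gave p = 0.0022, the smallest that 455 assignments allow, and 0.011 after Benjamini-Hochberg adjustment over 5 ratios. These ratios were chosen after the values were seen. The ratio was above Control in 10 of 10 libraries without those with pancreatic transcripts (adjusted exact p = 0.0175). It was above the 1 remaining Control library in 11 of 11 without those with squamous transcripts, where the smallest exact permutation p is 0.0833.

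H2-Oa and H2-Ob encode the chains of H2-DO, which holds back peptide loading by H2-DM. H2-Ob, the beta chain, stood at 11.7, 15.8 and 14.05 CPM in Control, 44.9, 46.0 and 25.4 CPM at saline D27, and 29.4, 10.7 and 81.4 CPM at saline D48. It stood at 20.9, 18.2 and 23.8 CPM at saline D100 and at 19.5, 18.4 and 11.9 CPM with APX3330. At saline D48 the 3 libraries thus ranged from below Control to the highest of the 15. The log2 fold change was 1.49 at saline D27 (edgeR adjusted p 0.0408), 1.55 at saline D48 (adjusted p 0.0250), 0.60 at saline D100 (adjusted p 0.406) and 0.26 with APX3330 (adjusted p 0.761).

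H2-Oa, the alpha chain, was near the limit of the counts, at 0.965, 1.02 and 0.865 CPM in Control. It stood at 3.23, 5.03 and 2.05 CPM at saline D27, 1.85, 1.60 and 7.72 CPM at saline D48, 1.84, 0.577 and 1.20 CPM at saline D100, and 1.69, 0.800 and 0.737 CPM with APX3330. The Control group held 42 counts of the gene in all and the APX3330 group 48. The log2 fold change was 1.84 at saline D27 (edgeR adjusted p 0.0437) and 1.97 at saline D48 (adjusted p 0.0241), and 0.33 and 0.18 at saline D100 and with APX3330 (adjusted p 0.751 and 0.886). At saline D27 the call was lost for H2-Oa and for H2-Ob when any of 5 of the 6 libraries compared was left out, that is any but saline D27 replicate 3. The log2 fold changes were then between 1.47 and 1.90 for H2-Oa and between 1.35 and 1.59 for H2-Ob. Without saline D48 replicate 3 the saline D48 values became 0.86 for H2-Oa and 0.54 for H2-Ob (adjusted p 0.279 and 0.303). Whether these genes differ between days is a separate question, and saline D100 against saline D48 did not pass for H2-Oa (-1.64, adjusted p 0.0772), H2-Ob (-0.95, adjusted p 0.193) or H2-DMb2 (-1.07, adjusted p 0.108).

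Ciita, the class II coactivator, moved with the classical chains. It stood at 13.0, 18.3 and 13.1 CPM in Control, 48.2, 45.0 and 36.8 CPM at saline D27, and 52.6, 34.1 and 115 CPM at saline D48. It stood at 38.8, 29.7 and 43.0 CPM at saline D100 and at 39.5, 29.6 and 31.9 CPM with APX3330. No AOM/DSS library overlapped Control. The log2 fold change was 1.55 ± 0.326 at saline D27, 2.19 ± 0.329 at saline D48, 1.33 ± 0.327 at saline D100 and 1.19 ± 0.326 with APX3330 (edgeR adjusted p 0.00451, 0.000276, 0.00888 and 0.0233). With APX3330 this call was lost when any of 4 of the 6 libraries was left out (Control replicate 1 or 3, APX3330 replicate 1 or 3), with fold changes between 1.06 and 1.23 and an adjusted p of up to 0.0913.

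**Figure D3:**
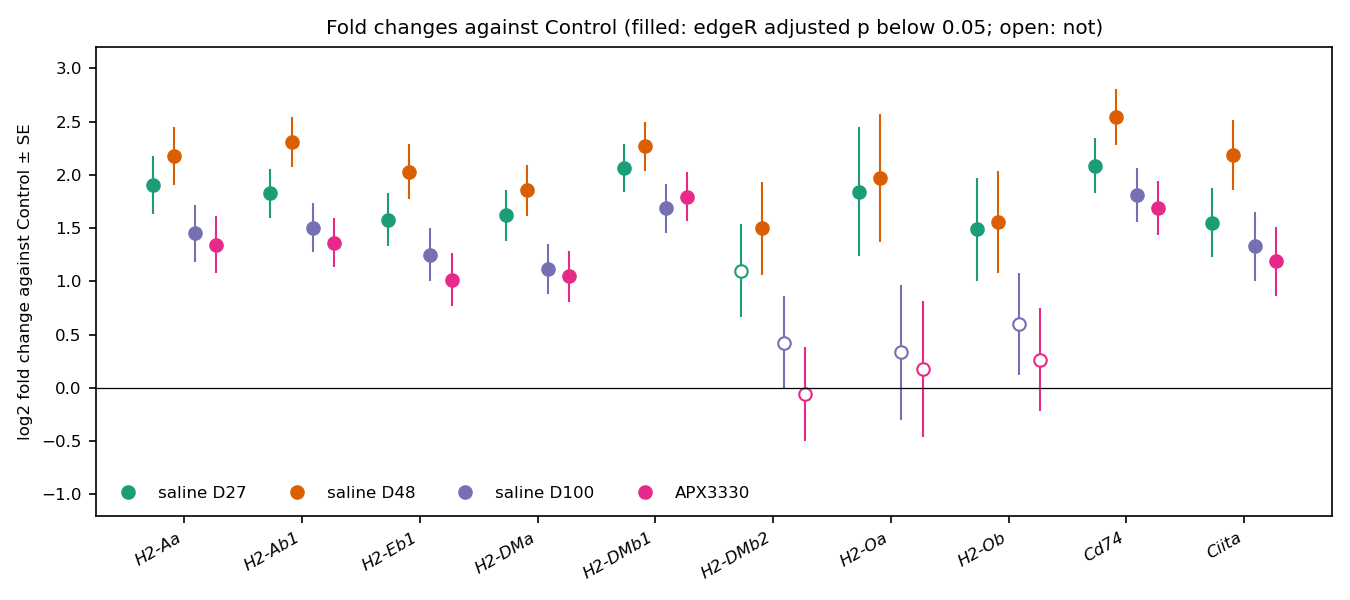
Log2 fold change against Control ± SE for the 10 genes in the 4 AOM/DSS groups of 3 libraries each (filled points: edgeR adjusted p below 0.05; open points: not). The classical chains, H2-DMa, H2-DMb1, Cd74 and Ciita are filled in each group, while H2-DMb2, H2-Oa and H2-Ob are open at saline D100 and with APX3330.

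The Control libraries bear on each comparison above, and 2 of them carried squamous transcripts. Without Control replicates 1 and 3 and saline D100 replicate 1, with the remaining Control library assumed to vary like the other groups, the median log2 fold change of the 10 genes was 1.72 at saline D27, 2.01 at saline D48, 1.29 at saline D100 and 1.11 with APX3330. With so few libraries the calls fell to 5, 6, 3 and 2 of 10. H2-DMb1 and Cd74 were the genes called in each of these 4 comparisons. Ciita was called in none of them, at 1.22, 1.86, 0.97 and 0.87 on the log2 scale. Without the saline D48 libraries that carried pancreatic transcripts, replicates 2 and 3, 9 of 10 were called higher at saline D48 than in Control. This leaves 1 saline D48 library, which is assumed to vary like the other groups. The share of all genes called in these refits is not given here. A fall in the counts of class II genes therefore cannot be told from a fall over all genes.

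Per kilobase of annotated exon, Cd74 had the highest mean level in each group, from 133 ± 21.8 CPM per kb in Control to 779 ± 389 at saline D48. H2-Eb1 and H2-Ab1 followed, at 58.5 ± 10.0 and 47.3 ± 6.29 CPM per kb in Control and at 239 ± 107 and 234 ± 99.7 at saline D48, and then H2-Aa at 36.4 ± 4.59 and 164 ± 85.6. This order depends on the length used, which joins the exons of all annotated transcripts (3798 bases for H2-Aa, 1944 for H2-Eb1). In CPM, H2-Aa was the highest of these chains in Control, at 138 against 122 for H2-Ab1 and 114 for H2-Eb1. H2-DMb1 had 7.70 ± 0.832 CPM per kb in Control and H2-DMa 3.89 ± 0.293. Ciita itself was low, at 1.55 ± 0.320 CPM per kb in Control and 7.07 ± 4.47 at saline D48. H2-Oa was the lowest, at 0.676 ± 0.0565 CPM per kb in Control.

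For 8 of the 10 genes the mean level ran saline D48, saline D27, saline D100, APX3330 and Control from highest to lowest. H2-DMb1 had APX3330 above saline D100, and H2-DMb2 had APX3330 below Control. No pair of neighbours among the AOM/DSS groups in that order was called for any of the 10 genes. In saline D48 against saline D27, where 1.35% of all genes were called, 0 of the 10 were called by edgeR, 1 had an unadjusted p below 0.05 and DESeq2 called 0. In saline D100 against saline D27, where 3.08% were called, 0 were called by edgeR, 2 had an unadjusted p below 0.05 and DESeq2 called 0. The share of all genes with an unadjusted p below 0.05 is not given here. In saline D100 against saline D48, where 6.4% of all genes were called lower, H2-Ab1 (-0.81, edgeR adjusted p 0.0268), H2-Eb1 (-0.78, adjusted p 0.0472) and H2-DMa (-0.74, adjusted p 0.0422) were lower, and 0 were called without saline D48 replicate 3.

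The series compares APX3330 with saline. Because its labels give no day for the APX3330 group, the inhibitor was set beside each saline day. Against saline D100 the fitted differences of the 10 genes were small: 0 were called by edgeR, 0 had an unadjusted p below 0.05 and DESeq2 called 0, while 0.504% of all genes were called. The log2 differences ran from -0.48 (H2-DMb2, SE 0.439) to 0.11 (H2-DMb1, SE 0.214), with -0.12 for Cd74 (SE 0.247) and -0.14 for Ciita (SE 0.314). Differences of the size of these standard errors could not be detected with 3 libraries a group.

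Against saline D27, where 9.08% of all genes were called, the 10 genes were lower in the fit with a median log2 difference of -0.56, but 0 were called by edgeR. In this comparison 6 had an unadjusted p below 0.05, and DESeq2 called 1. Saline D48 replicate 3 is in neither of these groups but is part of the same fit. Without it the count called in this comparison was 5, all lower with APX3330. The cause of this shift was not tested. The share of all genes called in that refit, or with an unadjusted p below 0.05, is not given here.

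Against saline D48, 8 of the 10 genes were lower with APX3330, where 10.3% of all genes were called lower. The fall was -0.94 ± 0.225 (SE) for H2-Ab1 (edgeR adjusted p 0.00924), -1.01 ± 0.247 for H2-Eb1 (adjusted p 0.0106), -0.86 ± 0.248 for Cd74 (adjusted p 0.0251) and -1.003 ± 0.313 for Ciita (adjusted p 0.0349). H2-Aa, H2-DMa, H2-DMb2 and H2-Oa were also called, and H2-DMb1 (adjusted p 0.134) and H2-Ob (adjusted p 0.0680) were not. The comparison turned on saline D48 replicate 3: without it H2-Ab1 alone was called (-0.54, adjusted p 0.0416), Cd74 stood at -0.38 (adjusted p 0.156) and Ciita at -0.37 (adjusted p 0.286). Without APX3330 replicate 3 the count called was 1 and without APX3330 replicate 2 it was 2, while the fitted differences were about as large, at -0.82 and -0.79 for Cd74 and -0.96 and -0.92 for Ciita. Without saline D48 replicates 2 and 3, the libraries with pancreatic transcripts, the count was 0, with 1 saline D48 library left that is assumed to vary like the other groups.

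Genes that act with class II were read from lists for endosomal processing, the transcription complex, class I presentation, the interferon gamma axis and costimulation. Of 12 processing genes tested, 3 were higher and 2 lower than Control at saline D27, 6 higher and 1 lower at saline D48, 2 higher and 2 lower at saline D100, and 0 higher and 2 lower with APX3330. Lgmn, an endosomal protease, rose at saline D48 (log2 fold change 0.95, edgeR adjusted p 3.32e-05), as did the cathepsins Ctsd (0.67, adjusted p 0.000541) and Ctsb (0.43, adjusted p 0.00200). Ctsl, the protease that trims the invariant chain in thymic epithelium, fell in each AOM/DSS group, by 0.41 at saline D27, 0.35 at saline D48, 0.81 at saline D100 and 0.75 with APX3330 on the log2 scale. The median log2 fold change of the list was 0.20 at saline D27, 0.34 at saline D48, 0.05 at saline D100 and -0.01 with APX3330, far below the medians of the class II genes.

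Of 7 DNA-binding partners of Ciita (the RFX and NF-Y subunits and Creb1), 0 were called at saline D27, 1 rose at saline D48, 2 rose and 1 fell at saline D100, and 1 rose with APX3330. Rfx5, a subunit of the RFX complex that binds the X box, stood at 11.2 ± 0.570 CPM in Control, 11.5 ± 1.35 at saline D27, 12.2 ± 1.52 at saline D48, 10.2 ± 2.87 at saline D100 and 12.1 ± 3.07 with APX3330, and its F test over the 5 groups gave an edgeR adjusted p of 0.807. Of the 14 genes of the list, 4 rose at saline D27, 6 at saline D48 and at saline D100, where 1 fell, and 1 with APX3330. Nfya, a subunit of the NF-Y complex, rose by 0.48 at saline D48, 0.40 at saline D100 and 0.55 with APX3330 (edgeR adjusted p 0.0157, 0.0457 and 0.0147). At saline D100 Creb1 also rose, by 0.47 (adjusted p 0.0352), and Nfyc, another NF-Y subunit, fell by 0.32 (adjusted p 0.0496), both named after their values were seen. The largest rises were in leukocyte transcription factors of the list: at saline D48 Spi1, the myeloid and B cell factor PU.1, rose by 1.83, Prdm1, the plasma cell factor that represses Ciita, by 1.45, and Irf4 by 1.44. The median log2 fold change of the list was between 0.10 and 0.27 in these 4 comparisons.

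Class I presentation moved with class II, at a smaller median size. Of 15 genes 14 rose at saline D27, 15 at saline D48, 12 at saline D100 and 6 with APX3330, with median log2 fold changes of 0.84, 0.89, 0.71 and 0.34. Nlrc5, the coactivator of class I genes and a relative of Ciita, rose from 13.0 ± 3.02 CPM in Control to 51.7 ± 11.9 at saline D27, 63.2 ± 34.6 at saline D48, 59.0 ± 5.44 at saline D100 and 32.2 ± 3.04 with APX3330. Its log2 fold changes against Control were 1.99, 2.28, 2.18 and 1.31, and with APX3330 it was lower than at saline D48 (-0.97, edgeR adjusted p 0.0242), but not without saline D48 replicate 3 (-0.43, adjusted p 0.169). Tap2, a subunit of the peptide transporter, and Psmb8, an immunoproteasome subunit, rose by 1.29 and 1.73 at saline D48, and with APX3330 stood at 0.34 (adjusted p 0.244) and 0.49 (adjusted p 0.224) above Control. Pdia3, a chaperone of the loading complex, rose by 0.40 at saline D48 and by 0.61 with APX3330.

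Interferon gamma is the classical inducer of Ciita outside professional antigen-presenting cells. Ifng itself had between 0 and 4 counts in any library and was not tested, which is too few to compare groups. Of 20 genes of the axis that were tested, 12 rose at saline D27, 16 at saline D48, 11 at saline D100 and 3 with APX3330, and in each comparison 2 fell. The genes that fell were the receptor chains Ifngr1 (-0.59, -0.53, -0.66 and -0.71) and Ifngr2 (-0.43, -0.30, -0.43 and -0.43), named here after their values were seen. Irf1, which drives the inducible Ciita promoter, was called at saline D48 at 0.38 (adjusted p 0.0497) and stood at -0.40 with APX3330 (adjusted p 0.0572).

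Several interferon-inducible genes of the list had their highest mean at saline D48. Cxcl9, a T cell chemokine, was at 1.47 ± 1.21 CPM in Control, 28.4 ± 21.8 at saline D48 and 4.43 ± 2.21 with APX3330. Its log2 fold change at saline D48 was 4.26 (edgeR adjusted p 0.000227), and with APX3330 it was 1.58 (adjusted p 0.1004). Ido1, a tryptophan-degrading enzyme, rose by 3.06 at saline D48 and stood at -0.28 with APX3330 (adjusted p 0.779), and Gbp5, a guanylate-binding protein, rose by 1.64 and stood at 0.21 (adjusted p 0.615). Irgm1, an interferon-inducible GTPase, rose by 1.21 at saline D100. Of 6 costimulatory genes tested, which give T cells the signal that accompanies class II, 1 rose at saline D27, 5 at saline D48 and 2 at saline D100. With APX3330 0 were called, and Cd80, a ligand of Cd28, stood at 1.13 (adjusted p 0.0529) after rises of 2.09 at saline D48 and 1.60 at saline D100.

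Leukocyte markers moved with the class II genes. The 6 pan-leukocyte genes (Ptprc, Coro1a, Laptm5, Cd52, Arhgdib and Cd53) summed to between 113 and 137 CPM in Control, 281 and 420 at saline D27, 274 and 886 at saline D48, 262 and 320 at saline D100, and 157 and 240 with APX3330. Of these genes 6 rose at saline D27, 6 at saline D48 and 4 at saline D100. With APX3330 0 of 6 were called against Control, with a median log2 fold change of 0.53, while 7 of the 10 class II genes were called there with a median of 1.12. Ptprc, which encodes the leukocyte antigen CD45, stood at 31.3 ± 4.14 CPM in Control and 61.8 ± 7.09 with APX3330 (log2 fold change 0.98, edgeR adjusted p 0.0618). The part of leukocyte number in the class II values was not tested.

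The 12 B cell genes are given beside H2-DO and H2-DMb2. They summed to between 93.1 and 107 CPM in Control, 203 and 414 at saline D27, 104 and 790 at saline D48, 110 and 162 at saline D100, and 96.5 and 138 with APX3330. Of the 12 genes 6 rose at saline D27 and 11 at saline D48, and 0 were called at saline D100 or with APX3330, with median log2 fold changes of 1.54, 1.98, 0.51 and 0.16. Cd79a, a signalling chain of the B cell receptor, rose by 1.82 at saline D27 and 2.06 at saline D48 and stood at 0.71 at saline D100 (edgeR adjusted p 0.281) and 0.32 with APX3330 (adjusted p 0.685). Saline D48 replicate 3 had 790 CPM and replicate 2 had 104 CPM of B cell transcripts. At that day these libraries were also highest and lowest for every class II gene described here, H2-Ob, H2-Oa and H2-DMb2 among them. The same order held for the pan-leukocyte sum (886 and 274 CPM) and the T cell sum (158 and 58.2 CPM). It also held for the dendritic cell sum (109 and 52.4 CPM) and the macrophage sum (1365 and 998 CPM). The order was therefore not particular to the B cell list or to these genes. The part of B cells in the H2-DO values was not tested.

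Other antigen-presenting and T cell markers differed in size of change. Of 11 macrophage genes 7 rose at saline D27, 9 at saline D48, 10 at saline D100 and 3 with APX3330, with median log2 fold changes of 0.95, 1.47, 0.96 and 0.42. C1qb, a complement gene of tissue macrophages, rose by 1.10, 1.67, 1.12 and 0.49. Of 10 dendritic cell genes 1 rose at saline D27, 4 at saline D48 and 1 at saline D100, and 0 were called with APX3330. The medians of this list were 0.57, 1.15, 0.52 and 0.11. Itgax, which encodes CD11c, rose by 1.51 at saline D48 and 1.18 at saline D100 and stood at 0.48 with APX3330 (edgeR adjusted p 0.163). Of 8 T cell genes 8, 8, 7 and 5 rose in the 4 groups, and Cd4, the coreceptor that binds class II, rose by 1.97 at saline D27, 2.48 at saline D48, 1.88 at saline D100 and 1.07 with APX3330. The T cell medians were 1.91, 2.39, 1.61 and 1.22. Each was above the median of the class II genes in the same comparison (1.72, 2.10, 1.29 and 1.12). Of 8 smooth muscle genes 0 were called at saline D27 and 7 were lower in each of the other 3 groups. Of 13 colon epithelial genes 2 or 3 were higher and 3 or 4 lower in each group. The share of all genes called lower than Control is not given here, so the counts of lower genes in any list have no such measure beside them.

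The lists were also read with the libraries that carried other tissue left out, an alternative chosen after seeing the data. Without the libraries with squamous transcripts, which leaves 1 Control library assumed to vary like the other groups, fewer genes were called. The share of all genes called is not given here for this fit or for the fit without the libraries with pancreatic transcripts. Of 15 class I genes 5, 6, 3 and 0 rose at saline D27, saline D48, saline D100 and with APX3330, with medians of 0.90, 0.80, 0.76 and 0.42 on the log2 scale. Of 20 interferon axis genes 2, 9, 4 and 0 rose, of 11 macrophage genes 1, 7, 3 and 0, and of 8 T cell genes 1, 4, 1 and 0. Of 6 pan-leukocyte genes 3 rose at saline D48 and 0 in the other 3 groups, with medians of 1.47, 2.02, 1.19 and 0.54. Of 12 B cell genes 0 were called in any of the 4 groups, with medians of 1.59, 1.89, 0.42 and 0.20. Of 6 costimulatory genes 1 rose at saline D48, of 12 processing genes 2 rose there, of 14 transcription complex genes 1 rose there, and in the other 3 groups 0 rose. Ctsl fell at saline D100 and with APX3330 and stood at -0.50 (adjusted p 0.0761) and -0.44 (adjusted p 0.0758) at saline D27 and D48. Smooth muscle genes were lower in 7 of 8 cases at saline D48, 3 at saline D100 and 7 with APX3330.

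Without the libraries with pancreatic transcripts, the 1 saline D48 library left had 8 of 15 class I genes, 5 of 20 interferon axis genes, 3 of 12 processing genes and 3 of 14 transcription complex genes higher than Control. Of the markers, 6 of 6 pan-leukocyte, 9 of 12 B cell, 8 of 11 macrophage, 6 of 8 T cell, 2 of 10 dendritic cell and 3 of 6 costimulatory genes were higher there.

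**Figure D4:**
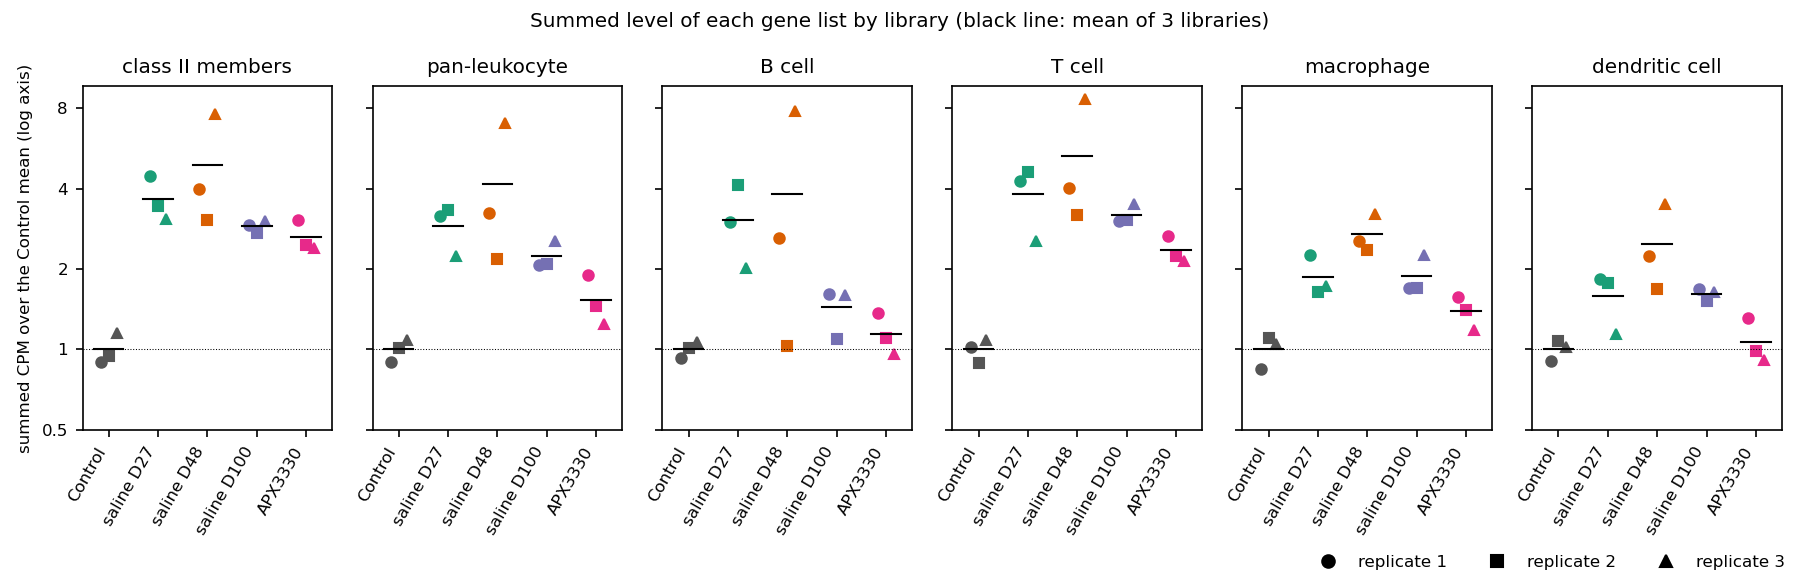
Summed CPM of the class II genes and of 5 marker lists in each library, divided by the mean of the 3 Control libraries (log axis, dotted line at 1, black lines: group means). The class II genes and the T cell list (lowest 2.15, APX3330 replicate 3) stay above 2 in each AOM/DSS library, while the B cell list lies between 0.96 and 1.37 with APX3330.

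Within a library, Ciita kept a narrow ratio to Ptprc. Ptprc was also among the genes most like Ciita over these libraries (r = 0.976), so this ratio and its permutation test only restate that likeness. Ratios to the other pan-leukocyte genes were not computed. The ratio of Ciita to Ptprc counts was 0.471 ± 0.0520 (SD, n = 3) in Control, 0.457 ± 0.0386 at saline D27, 0.528 ± 0.0478 at saline D48, 0.436 ± 0.0315 at saline D100 and 0.546 ± 0.0630 with APX3330. The 12 AOM/DSS libraries differed from Control by 0.06 on the log2 scale (exact two-sided permutation p = 0.626, 0.626 after adjustment over 5 ratios). The ratio of Cd74 to Ptprc was higher in AOM/DSS, at 7.23 ± 1.38 in Control, 10.1 ± 1.69 at saline D27, 10.9 ± 2.49 at saline D48, 9.34 ± 1.01 at saline D100 and 11.7 ± 1.16 with APX3330. In 11 of 12 AOM/DSS libraries it was above each Control library, by 0.54 on the log2 scale in the mean (exact two-sided permutation p = 0.0044, adjusted 0.011). Without the pancreatic libraries it was so in 9 of 10 (adjusted exact p = 0.0175), and without the squamous libraries in 11 of 11 against 1 Control library (exact permutation p = 0.0833, the smallest possible). The ratio of H2-Aa to H2-Ab1 did not separate the groups (adjusted exact permutation p = 0.626), and neither did that of H2-Ob to H2-DMa (-0.54, adjusted exact permutation p = 0.201).

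**Figure D5:**
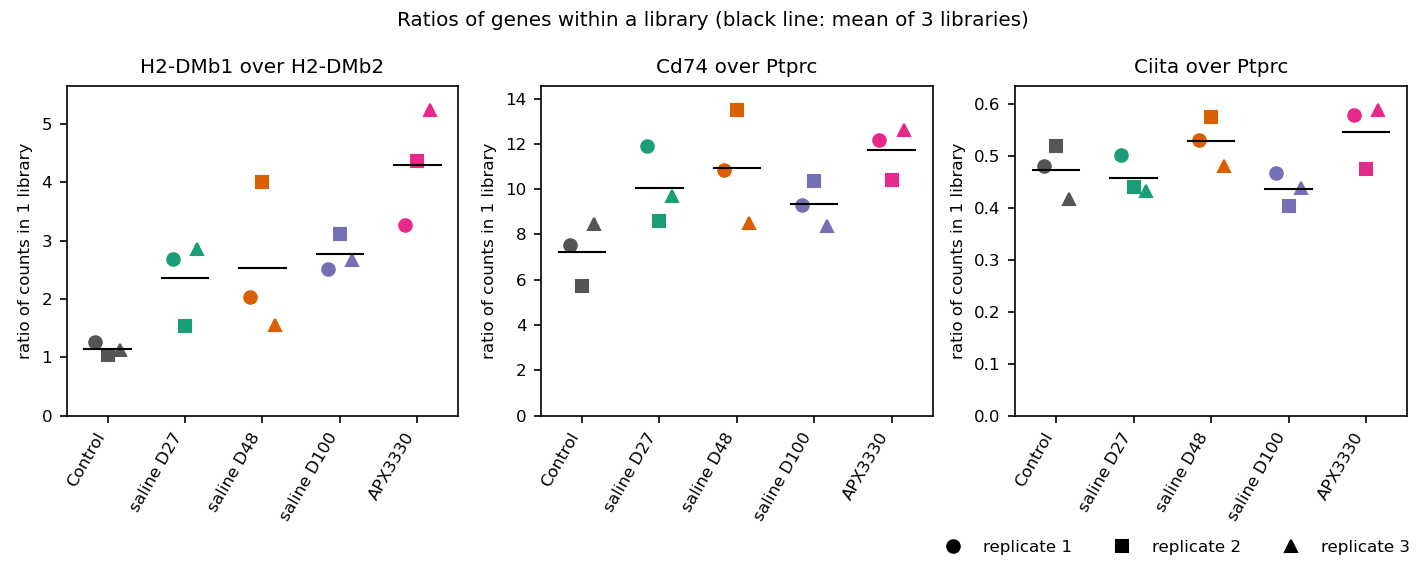
Ratio of counts of 2 genes within each library, by group, with the group mean as a line. H2-DMb1 over H2-DMb2 is above each Control library in 12 of 12 AOM/DSS libraries and Cd74 over Ptprc in 11 of 12, while Ciita over Ptprc lies between 0.404 and 0.587 in the 15 libraries.

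The 10 genes did not vary as 1 block. Across the 15 libraries, which share the group differences, Pearson's r between log2 levels was 0.992 for H2-Ab1 and Cd74 and 0.987 for H2-Aa and H2-Ab1. With Ciita it was 0.961 for H2-Aa, 0.952 for Cd74, 0.800 for H2-Ob and 0.754 for H2-Oa. The lowest value was 0.608, between H2-DMb1 and H2-DMb2. Of 12966 other genes, those most like the mean of H2-Aa, H2-Ab1, H2-Eb1 and Cd74 over the 15 libraries were Btnl2 (r = 0.965), a butyrophilin-like gene, Itgb2 (0.964) and Itgal (0.964), the chains of the leukocyte integrin LFA-1, and the T cell genes Cd5 (0.962) and Cd3g (0.960). Those most like Ciita were Lcp1 (0.977), a leukocyte actin-bundling protein, Ptprc (0.976), Apbb1ip (0.975), an integrin-activating adaptor, Cd28 (0.967) and Itgal (0.962). After subtraction of the group means the r of these genes was between 0.767 (Btnl2) and 0.981 (Lcp1), again over 15 libraries and with saline D48 replicate 3 among them.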

How the data were processed

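RNA from 15 mouse colon libraries was analysed from 1 table of whole-number counts per gene, deposited by the authors and not normalised. Per the labels' protocols, libraries were made with a SMARTER kit. GRCm38 and mm10 are the genome builds named, per the submitters' processing notes. Which aligner and counter were used, and whether strand was counted, is not given in the sources used here. Groups follow the labels, and each table column was tied to its sample by name.

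Low genes were removed with filterByExpr, which left 18038, and 15 libraries were fitted together in edgeR 4.0.16 (R 4.3.3; TMM, glmQLFit and glmQLFTest) for 10 comparisons and an F test. P-values were Benjamini-Hochberg adjusted over all genes tested, with a threshold of 0.05. CPM values use TMM factors, and SE is the log2 fold change divided by the square root of the F statistic. Gene ratios were compared with exact permutation tests. The fit was tested on simulated counts. Pairs of libraries within a group differed beyond counting noise (chi-square per degree of freedom at least 8.76), so none was taken as a duplicate. With 3 libraries against 3, an exact permutation test of a gene cannot go below 0.1.

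The class II genes and 15 gene lists were chosen with earlier results of these data known. Named genes were the 10 class II genes, up to 4 genes of a described list with the smallest p of the F test, regulators and markers (Rfx5, Nlrc5, Ifng, Irf1, H2-Eb2, H2-Ea and Ptprc), and the 5 most like the class II chains or Ciita among genes averaging at least 2 CPM that are neither predicted genes nor antigen receptor segments. Results of some genes the rule names are not reported here. Likeness was Pearson's r of log2(CPM + 0.5). Lists for group 3 innate lymphoid, exocrine pancreas and squamous genes were also read. Of 3 innate lymphoid genes tested 1, 2, 1 and 1 rose at saline D27, saline D48, saline D100 and with APX3330, and 0, 0, 1 and 1 fell. Of 10 pancreatic genes tested 10 rose at saline D48 and 0 in the other 3 groups, and of 10 squamous genes 6, 5, 3 and 7 fell in the same order.

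Alternatives were DESeq2 size factors, no filter, the DESeq2 test (1.42.0), a replicate block, only the groups compared, each library left out, and the libraries with squamous or with pancreatic transcripts left out. Replicate numbers are shared between groups but did not pair the libraries: in 0 of 10 comparisons were the correlations of same-numbered deviations above 0.1 for every pair. Positions come from GENCODE M21 and promoters from RefSeq. Python 3.11.15 and matplotlib 3.10.9 were used for figures.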

Additional observations from a re-analysis of the deposited data

How the results depend on the processing

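Of 650 gene values recomputed under an alternative, 550 kept their side of the threshold, 68 lost their call and 32 gained one. Leaving out 1 library entered these values only as the refits with the lowest and the highest fold change. Calls lost in other such refits are therefore not in this count. Saline D48 and saline D100 against saline D27 were not part of it. Among the values called in either fit, 0 reversed. Some values that were not called did change sign. With the squamous libraries dropped, H2-Oa went to -0.23 at saline D100 against Control, where the main fit gave 0.33. For APX3330 against saline D100 it went to 0.29, where the main fit gave -0.16. Against Control, leaving out 1 library gave 7 to 10 class II genes called at saline D27, 7 to 10 at saline D48, 7 to 7 at saline D100, 5 to 7 with APX3330 and 8 to 10 in the F test. Without the libraries with squamous transcripts these counts were 5, 6, 3, 2 and 6, where 1 Control library remained. APX3330 against saline D27 (0 called) gave 7 with no filter, 1 with the DESeq2 test, 2 with only these groups and 0 to 5 with 1 library left out. APX3330 against saline D48 (8 called) gave 1 with only these groups, 0 without the libraries with pancreatic transcripts and 1 to 10 with 1 library left out. Saline D100 against saline D48 (3 called) gave 10 with no filter, 5 with the DESeq2 test, 0 with only these groups, 0 without the libraries with squamous or with pancreatic transcripts and 0 to 10 with 1 library left out. With no filter, saline D48 against saline D27 gave 2 and saline D100 against saline D27 gave 4, and leaving out 1 library kept these and APX3330 against saline D100 at 0 to 0. The cause of these shifts was not tested, and the share of all genes called under each alternative is not given here.

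With the replicate block the count in saline D100 against saline D48 was 1, and the other 10 counts stayed within 1.5 times. In 0 of 10 comparisons did every library correlate best with its own number. Depth limits H2-Oa most, with 42 counts over the Control group.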
